A study of Caenorhabditis elegans with 30 samples.

Results

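The haem-responsive hrg genes of Caenorhabditis elegans were followed across 10 groups of whole-worm RNA-seq libraries. The genes were chosen by name, and 8 of the 46748 genes in the count table were taken: hrg-1, hrg-2, hrg-3, hrg-4, hrg-5, hrg-6, hrg-7 and hrg-9. The table holds 9 genes with an hrg name, and the remaining gene, hrg-10, is described beside hrg-9. The animals were hermaphrodites of the wild-type strain N2, aged 5 days, fed bacteria that make double-stranded RNA against a chosen gene (RNA interference, RNAi) or that carry L4440, the empty feeding vector. There were 3 libraries in each group. Library titles begin with ZK or RM. The ZK libraries hold the L4440 control (here L4440_ZK) and RNAi against R186.7, ZK795.1, C01A2.5 and M04C9.5. The RM libraries hold another L4440 control (L4440_RM) and RNAi against F25H2.5, F55H2.6, R04E5.10 and F26D12.1. Nothing in the labels ties the 3 libraries to separate cultures. The p-values therefore measure the spread between libraries, which may be technical.

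Caenorhabditis elegans cannot make haem and takes it up from the bacteria it eats. The intestine imports haem with the membrane transporters HRG-4, at the cell surface, and HRG-1, in endosomes and lysosomes, and transcripts of both genes are known to rise when haem is scarce. HRG-5 and HRG-6 are paralogues of these transporters. HRG-3 is a small secreted protein that carries haem from the mother's intestine to other tissues and embryos. HRG-2 is a haem-binding membrane protein of the epidermis, HRG-7 is a secreted relative of the aspartic proteases that carries a haem signal between tissues, and HRG-9, a homologue of human TANGO2, moves haem out of the places where it is stored.

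Library totals ran from 31835911 to 44987307 counts. The targeted gene was lower in the libraries for R186.7 (pnn-1), ZK795.1 (ipmk-1), C01A2.5 (tads-1), F25H2.5 (ndk-1) and F55H2.6 (clu-1). It was higher in the libraries labelled M04C9.5, where dyf-5 stood at 7.62 ± 1.38 CPM (counts relative to the library's total scaled by TMM, the trimmed mean of M values; SD, n = 3) against 0.276 ± 0.0891 in L4440_ZK, and in those labelled R04E5.10, where ifd-1 stood at 20.7 ± 3.73 against 5.22 ± 1.98 in L4440_RM. The fkh-7 level of the libraries labelled F26D12.1, at 25.8 ± 8.08 CPM, overlapped that of L4440_RM, at 21.9 ± 1.03. These 3 groups are therefore named by their label. Spread between libraries was larger in the RM set, with a biological coefficient of variation of 11.7% against 5.42% in the ZK set. The 2 control groups differed in 43.8% of genes, so levels are ordered within a prefix.

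The 8 genes lie on 3 chromosomes of the build WBcel235. The genes hrg-5 (WBGene00009494, IV:11028289-11029428, minus strand), hrg-4 (WBGene00009493, IV:11030143-11030993, minus strand) and hrg-6 (WBGene00009495, IV:11032588-11033599, plus strand) form a cluster, with gaps of 714 bp and 1594 bp. Chromosome V carries hrg-3 (WBGene00010256, V:9756468-9757019, plus strand), hrg-2 (WBGene00010473, V:12409415-12410513, minus strand), hrg-7 (WBGene00007605, V:12742041-12744171, plus strand) and hrg-9 (WBGene00011305, V:12961474-12963343, minus strand). The X chromosome carries hrg-1 (WBGene00019830, X:4008057-4016221, minus strand). The kit used does not mark strand, so reads from overlapping exons cannot be assigned to a gene. Exons of hrg-3 share 93 bp with F58E6.11, those of hrg-7 share 7 bp with C15C8.7 and those of hrg-9 share 11 bp with R186.9. The gene mop-25.1 overlaps hrg-1 over 4003 bp with 0 bp of shared exon.

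The 8 genes were spread over a wide range of levels (per-length plot). As the median over the 30 libraries of CPM per kb of the authors' gene length, hrg-7 stood highest at 29.2, followed by hrg-1 at 9.84 and hrg-4 at 4.34. Next came hrg-9 at 0.984 and hrg-6 at 0.933 CPM per kb, which lay within each other's spread in L4440_ZK, where hrg-9 measured 0.670 ± 0.164 and hrg-6 0.783 ± 0.156 (SD, n = 3). The epidermal gene hrg-2 stood at 0.598 CPM per kb. The lowest medians were those of hrg-5 at 0.202 and hrg-3 at 0.159 CPM per kb. The authors' length of hrg-5 was 520 bp, against 855 bp of exon in the annotation, so the order of these 2 genes depends on the length used.

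**Figure D1:**
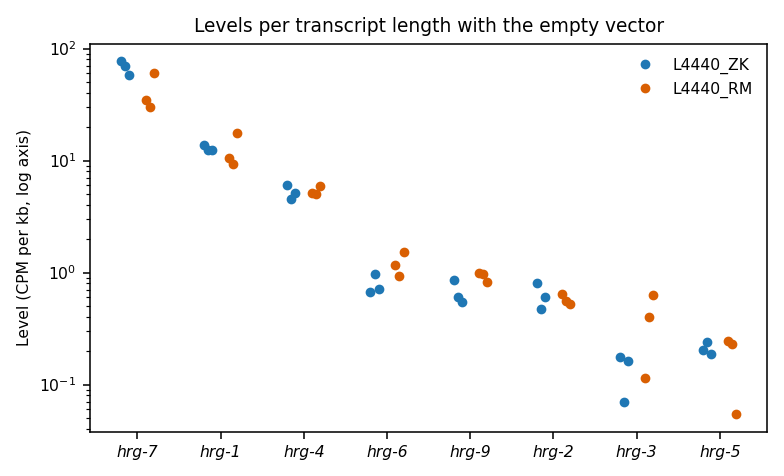
Level of each hrg gene per length, in CPM per kb on a log axis, in the 3 L4440_ZK and the 3 L4440_RM libraries (points). The genes are ordered by the mean of the 2 groups, from hrg-7, with a group mean of 68.4 CPM per kb in L4440_ZK, down to hrg-5. The group means of hrg-5 were 0.210 in L4440_ZK and 0.178 in L4440_RM, and those of hrg-3 0.136 and 0.383.

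The haem chaperone gene hrg-3 and the transporter paralogue hrg-5 were near the limit of detection in every group. A library held 0 to 10 counts of hrg-3, with 89 counts in all 30 libraries and 3 libraries at 0. The group sum of hrg-3 ran from 4 counts (95% exact Poisson interval 1.09 to 10.2) in ZK795.1 and F25H2.5 to 18 (10.7 to 28.4) in L4440_RM. For hrg-5, a library held 1 to 11 counts, and the group sum ran from 5 (1.62 to 11.7) in the libraries labelled M04C9.5 to 22 (13.8 to 33.3) in C01A2.5. These intervals cover counting error only. Both genes were removed as low in every fit, so 6 of the 8 genes were tested, and differences in hrg-3 or hrg-5 were not detectable at this depth. Tested without that filter, neither gene passed the threshold in any of the 8 treatments or between the controls. The lowest adjusted p was 0.155, for hrg-3 between L4440_RM and L4440_ZK, by the edgeR quasi-likelihood test with Benjamini-Hochberg adjustment.

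**Figure D2:**
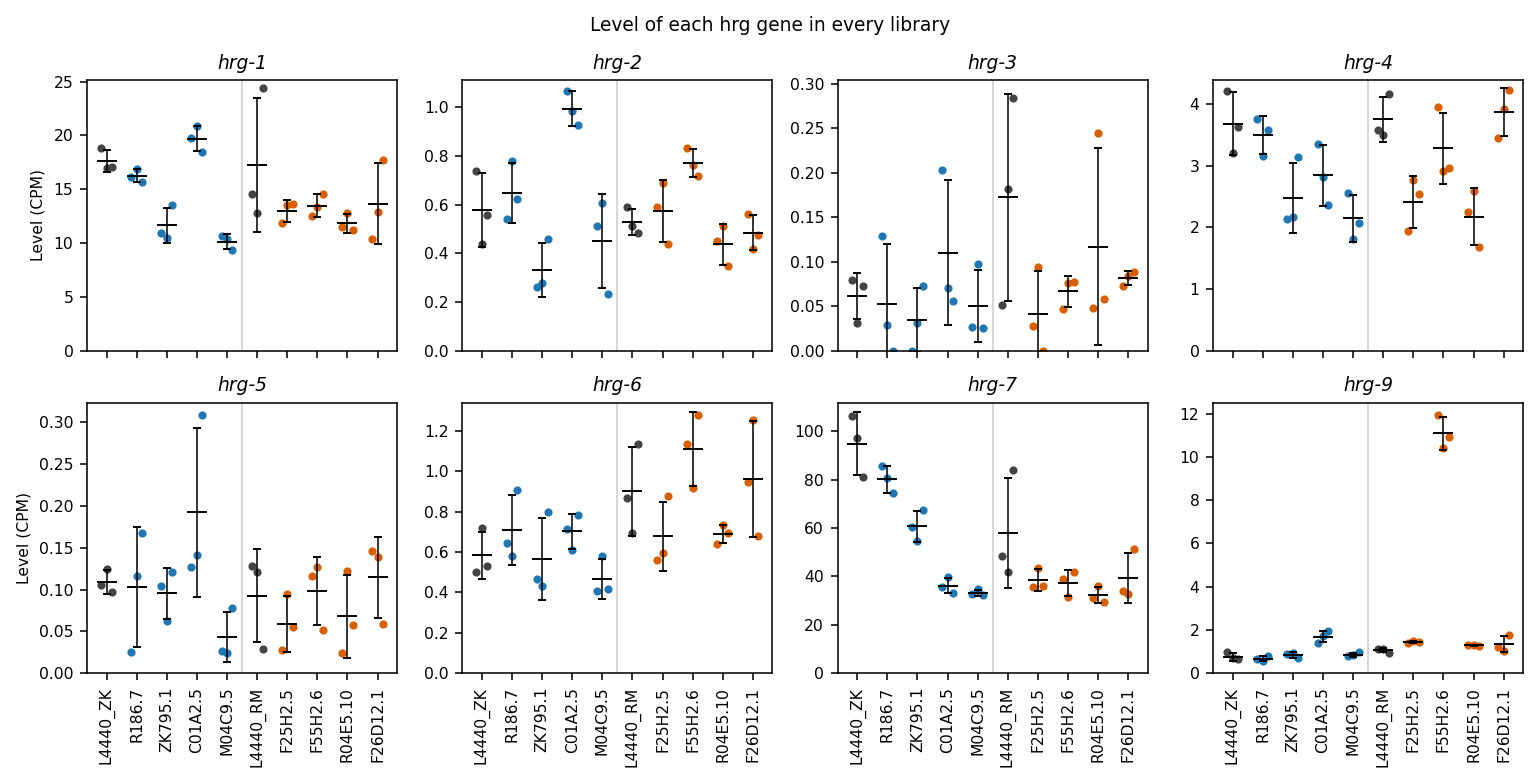
Level of the 8 hrg genes in CPM in each of the 30 libraries (points), with the group mean and SD (bars). The F55H2.6 libraries stand at 10.4 to 11.9 CPM of hrg-9, where no other library exceeds 1.94, and hrg-7 spans 29.5 to 106 CPM.

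Each treatment was compared with the L4440 group of its prefix, which asks whether RNAi against these genes moved the haem-responsive genes. Adjusted p-values here and below are from edgeR's quasi-likelihood test with Benjamini-Hochberg adjustment over all genes tested, with a threshold of 0.05. None of the 6 tested hrg genes passed in R186.7, where 2.55% of all genes did. In ZK795.1, 2 fell (hrg-1 and hrg-7) and 0 rose, against 1.99% of all genes called and 0.679% lower. In C01A2.5, 2 rose (hrg-2 and hrg-9) and 2 fell (hrg-4 and hrg-7), but 88.1% of all genes were called, 51.7% higher and 36.4% lower, so this share is below the background. In the libraries labelled M04C9.5, 3 fell (hrg-1, hrg-4 and hrg-7), against 19.8% of all genes called and 9.5% lower. Among the RM treatments, hrg-4 alone fell in F25H2.5, where 8.65% of genes were called and 3.39% were lower. In F55H2.6 hrg-9 alone rose, where 18.9% were called and 10.4% were higher. In the libraries labelled R04E5.10 hrg-4 alone fell, where 2.28% were called and 0.715% were lower. None passed in the libraries labelled F26D12.1, where a single gene of 15795 (0.00633%) did. The median log2 fold change of the 6 genes was -0.58 in ZK795.1 and -0.58 in the libraries labelled M04C9.5, where the median of all genes was 0.02 and -0.003. It was -0.41 in F25H2.5 and -0.44 in R04E5.10, where the median of all genes was -0.003 and 0.002. It was -0.10 in R186.7, 0.04 in F55H2.6 and -0.04 in F26D12.1, against 0.008, 0.04 and 0.003 for all genes, and 0.21 in C01A2.5 against 0.42. Groups whose 3 libraries all lie below or above the 3 controls were common. In ZK, 7.34% (R186.7), 8.05% (ZK795.1), 36.2% (C01A2.5) and 18% (M04C9.5) of tested genes lay wholly below, and 12.2%, 8.23%, 52% and 19.5% above. In RM, 15.4% (F25H2.5), 13.1% (F55H2.6), 9.96% (R04E5.10) and 3.17% (F26D12.1) lay wholly below, and 19.3%, 19.4%, 11.5% and 3.25% above.

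**Figure D3:**
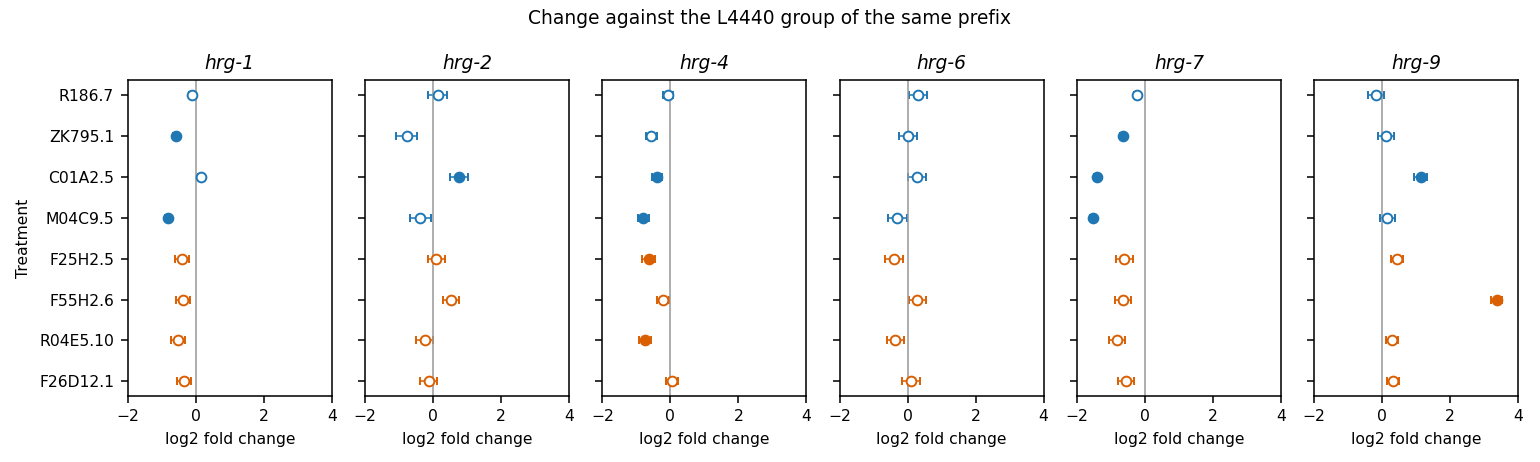
Log2 fold change of the 6 tested hrg genes in the 8 treatments against the L4440 group of the same prefix, with its standard error (bars). Filled points passed the threshold, blue is ZK and orange is RM. All 8 points of hrg-7 lie below 0, and hrg-9 reaches 3.37 in F55H2.6.

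The intestinal importer gene hrg-4 fell in 4 of the 8 treatments and lay below 0 in 7. These results are not independent, because the treatments of a prefix share their 3 controls. The level of hrg-4 was 4.23, 3.21 and 3.63 CPM in L4440_ZK and 2.56, 1.82 and 2.07 CPM in the libraries labelled M04C9.5. All 3 of the latter were below all 3 controls, with a log2 fold change of -0.80 ± 0.16 (SE; adjusted p = 0.000438, edgeR). The ZK795.1 libraries measured 2.13, 2.16 and 3.14 CPM, also below every control, with a change of -0.56 ± 0.16 that missed the threshold (adjusted p = 0.0573, edgeR). Replicate 3 of ZK795.1 was the high library of its group. Without it the change was -0.80 (adjusted p = 0.00378, edgeR), and without L4440_ZK replicate 2 it was -0.65 (adjusted p = 0.0485, edgeR), so the gene then passed. Leaving out ZK795.1 replicate 3 also raised the calls over all genes from 328 to 1304, and those lower from 112 to 879. Leaving out L4440_ZK replicate 2 gave 209 calls, 70 of them lower. The C01A2.5 libraries, at 3.36, 2.82 and 2.36 CPM, overlapped the controls. The fitted fall of 0.39 ± 0.15 on the log2 scale (adjusted p = 0.0209, edgeR) did not hold without L4440_ZK replicate 1 (-0.30, adjusted p = 0.102, edgeR), without C01A2.5 replicate 2 (-0.38, 0.0514) or without its replicate 3 (-0.29, 0.101). With scaling by library totals it was -0.15 (adjusted p = 0.378, edgeR). The R186.7 libraries, at 3.76, 3.16 and 3.58 CPM, lay among the controls (-0.08 ± 0.15).

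In the RM set hrg-4 measured 3.58, 3.51 and 4.18 CPM in L4440_RM. The F25H2.5 libraries stood at 1.94, 2.76 and 2.55 CPM, a change of -0.64 ± 0.18 (adjusted p = 0.0395, edgeR). The libraries labelled R04E5.10 stood at 2.26, 2.59 and 1.68 CPM, a change of -0.75 ± 0.18 (adjusted p = 0.0402, edgeR). Both groups lay wholly below the control, as did 15.4% and 9.96% of all genes there, and these calls were close to the threshold. Leaving out any of the 6 libraries of the F25H2.5 comparison ended its call, with log2 fold changes of -0.75 to -0.50 and adjusted p of 0.0659 to 0.159 (edgeR). The R04E5.10 call ended in 5 of the 6 such fits, those without any 1 of the 3 controls and without R04E5.10 replicate 1 or 3 (adjusted p = 0.0542 to 0.189, edgeR), with changes of -0.80 to -0.60. With the replicate number as a block, the R04E5.10 change was -0.76 and missed the threshold (adjusted p = 0.0561, edgeR). The F55H2.6 libraries, at 3.96, 2.93 and 2.97 CPM, and those labelled F26D12.1, at 3.46, 3.93 and 4.23, overlapped the control, with changes of -0.20 ± 0.18 and 0.04 ± 0.18. Compared with each other, the libraries labelled R04E5.10 were lower in hrg-4 than F55H2.6 by 0.55 ± 0.18 (adjusted p = 0.0455, edgeR) and differed from those labelled F26D12.1 by -0.80 ± 0.18 (adjusted p = 0.0256, edgeR). F25H2.5 differed from F26D12.1 by -0.68 ± 0.18 (adjusted p = 0.0249, edgeR).

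The endolysosomal transporter gene hrg-1 fell in ZK795.1 and in the libraries labelled M04C9.5. Its level was 18.8, 17.0 and 17.1 CPM in L4440_ZK, 11.0, 10.5 and 13.5 CPM in ZK795.1 and 10.6, 10.4 and 9.33 CPM in the libraries labelled M04C9.5. Neither treated group reached the controls. The changes were -0.59 ± 0.08 (adjusted p = 3.29e-05, edgeR) and -0.81 ± 0.09 (adjusted p = 1.53e-08, edgeR), and they lay between -0.73 and -0.55 and between -0.86 and -0.75 when each library was left out in turn. In these fits both passed. The pair did not differ from each other past the threshold (0.21 ± 0.09, adjusted p = 0.0765, edgeR). R186.7, at 16.2, 16.9 and 15.7 CPM, was just below the controls without passing (-0.12 ± 0.08, adjusted p = 0.520, edgeR).

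The C01A2.5 libraries carried the highest hrg-1 of the ZK set, at 19.7, 20.9 and 18.5 CPM, overlapping the controls with a change of 0.15 ± 0.08 (adjusted p = 0.0782, edgeR). The sign of that value depended on scaling: it was -0.08 with relative log expression factors and 0.39 with library totals. In C01A2.5 the median of all genes was 0.42, and these scalings moved it by -0.23 and 0.24. Against the libraries labelled M04C9.5, hrg-1 in C01A2.5 was higher by 0.96 ± 0.08 (adjusted p = 6.58e-12, edgeR). In the RM set hrg-1 measured 14.6, 12.8 and 24.4 CPM in L4440_RM, so replicate 3 stood far above its group. The 4 RM treatments measured 10.4 to 17.7 CPM, overlapped the control and gave changes of -0.52 to -0.34 without a call. Without L4440_RM replicate 3 these changes were -0.19 to -0.02.

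The paralogue hrg-6 passed the threshold in none of the 8 treatments, with changes of -0.41 to 0.31 and standard errors of 0.25 to 0.29. It measured 0.502, 0.717 and 0.532 CPM in L4440_ZK and 0.870, 0.695 and 1.14 in L4440_RM. The highest group mean of the RM set was that of F55H2.6, at 1.13, 0.916 and 1.28 CPM, and the lowest of the ZK set that of the libraries labelled M04C9.5, at 0.405, 0.581 and 0.415 CPM. Both overlapped their control. At 14 to 50 counts per library, changes of this size could not be separated from the spread.

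The secreted signal gene hrg-7 lay below its control in 8 of 8 treatments and fell past the threshold in 3, all in the ZK set. Treatments of a prefix share their 3 controls, so these directions are not independent. Its level was 106, 97.2 and 81.0 CPM in L4440_ZK, 35.5, 39.5 and 33.3 CPM in C01A2.5 and 32.9, 34.6 and 32.3 CPM in the libraries labelled M04C9.5. Both treated groups stood below every control library, 2.64-fold and 2.86-fold lower in the fit. The changes were -1.4 ± 0.09 (adjusted p = 3.49e-11, edgeR) and -1.52 ± 0.09 (adjusted p = 6.20e-10, edgeR). In C01A2.5, 36.4% of all genes fell, while in the libraries labelled M04C9.5 9.5% did. In the latter hrg-7 ranked 16403 of 16495 genes by log2 fold change, counted from the highest.

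ZK795.1 stood between, with 60.6, 54.5 and 67.2 CPM of hrg-7. This was a fall of 0.64 ± 0.09 on the log2 scale (adjusted p = 0.000247, edgeR), and all 3 libraries lay below the controls. R186.7, at 85.6, 80.5 and 74.4 CPM, overlapped the control with -0.25 ± 0.09 (adjusted p = 0.175, edgeR). Without L4440_ZK replicate 3, the lowest control, that change was -0.37 (adjusted p = 0.00566, edgeR). With DESeq2 it was -0.28 (adjusted p = 0.0211) and with no filter on low counts -0.24 (adjusted p = 0.00368, edgeR). In order of level the ZK groups ran L4440_ZK, R186.7, ZK795.1, C01A2.5 and M04C9.5. The neighbours R186.7 and ZK795.1 differed by 0.39 ± 0.09 (adjusted p = 0.00991, edgeR) and ZK795.1 and C01A2.5 by 0.76 ± 0.09 (adjusted p = 2.99e-07, edgeR). C01A2.5 and the libraries labelled M04C9.5 did not differ past the threshold (0.12 ± 0.09, adjusted p = 0.247, edgeR).

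In the RM set the level of hrg-7 was already low in the control. L4440_RM measured 48.6, 41.6 and 84.0 CPM, and the 4 treatments 35.4, 43.6 and 36.2 (F25H2.5), 38.9, 31.4 and 41.8 (F55H2.6), 31.1, 35.9 and 29.5 (labelled R04E5.10) and 33.8, 32.7 and 51.4 CPM (labelled F26D12.1). Replicate 3 of L4440_RM was again the high library, and the R04E5.10 group alone lay wholly below the control. The changes were -0.60 ± 0.24, -0.65 ± 0.24, -0.82 ± 0.24 and -0.56 ± 0.24 in that order, and none passed (adjusted p = 0.141, 0.0792, 0.117 and 1.00, edgeR). Without L4440_RM replicate 3 they were -0.25, -0.29, -0.47 and -0.21. Without L4440_RM replicate 2, the lowest control, F55H2.6 (-0.84, adjusted p = 0.0293, edgeR) and R04E5.10 (-1.01, adjusted p = 0.0426, edgeR) passed, and with DESeq2 both passed too (-0.71, adjusted p = 0.0407, and -0.84, adjusted p = 0.0476). No RM treatment differed from another in hrg-7.

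The haem-mobilising gene hrg-9 rose in F55H2.6 and, to a smaller extent, in C01A2.5. It measured 1.13, 1.12 and 0.937 CPM in L4440_RM, from 44, 37 and 33 counts, and 11.9, 10.4 and 10.9 CPM in F55H2.6, from 516, 410 and 426 counts. The groups were far apart, and the fitted rise was 10.3-fold (log2 3.37 ± 0.17, adjusted p = 1.42e-09, edgeR). It ranked 13th of 15795 genes by fold and 7th by p. Rises over 8-fold were called for 19 genes, 0.12% of those tested. With each library left out in turn the value stayed between 3.28 and 3.42.

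The other RM treatments did not share this level of hrg-9. F25H2.5 measured 1.41, 1.48 and 1.45 CPM, the libraries labelled R04E5.10 1.28, 1.32 and 1.25, and those labelled F26D12.1 1.22, 1.03 and 1.78. The first 2 groups lay wholly above L4440_RM, as did 19.3% and 11.5% of all genes there. Their changes of 0.44 ± 0.18 and 0.30 ± 0.18 did not pass (adjusted p = 0.138 and 0.489, edgeR). F26D12.1 overlapped it (0.33 ± 0.18). F55H2.6 exceeded each of them, by 2.93 ± 0.16, 3.07 ± 0.16 and 3.04 ± 0.16 on the log2 scale (adjusted p = 4.08e-09, 3.41e-09 and 3.57e-09, edgeR).

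In the ZK set hrg-9 measured 0.977, 0.686 and 0.629 CPM in L4440_ZK and 1.4, 1.74 and 1.94 CPM in C01A2.5. All 3 treated libraries were above the controls, a rise of 1.13 ± 0.20 (adjusted p = 6.79e-06, edgeR) where 51.7% of all genes rose. ZK795.1, at 0.884, 0.927 and 0.677 CPM, and the libraries labelled M04C9.5, at 0.782, 0.824 and 0.959, overlapped the control (0.11 ± 0.23 and 0.15 ± 0.23). The R186.7 target, pnn-1, lies 7766 bp from hrg-9 on chromosome V. In the R186.7 libraries hrg-9 was at 0.670, 0.550 and 0.789 CPM, overlapping the control, with a change of -0.18 ± 0.24 (adjusted p = 0.768, edgeR).

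The related gene hrg-10 did not share the rise of hrg-9 in F55H2.6. It measured 29.1 ± 1.13 CPM there and 25.8 ± 2.61 in L4440_RM (SD, n = 3), a change of 0.16 ± 0.09 (adjusted p = 0.238, edgeR), against 3.37 for hrg-9. It fell in C01A2.5 by 0.49 ± 0.08 (adjusted p = 7.50e-07, edgeR), where hrg-9 rose, and in the libraries labelled M04C9.5 by 0.25 ± 0.08 (adjusted p = 0.0157, edgeR), where hrg-9 overlapped the control. The gene next to hrg-9 on the same strand, mpst-7, 339 bp away and named after its values were seen, rose in F55H2.6 from 2.82 ± 0.279 to 4.67 ± 0.302 CPM (log2 0.71 ± 0.14, adjusted p = 0.00246, edgeR). R186.9, which overlaps hrg-9 by 11 bp, held 20 counts in all 30 libraries.

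Markers of other cell types moved in the same treatments. In bulk samples, fewer cells of a type and less RNA per cell cannot be told apart. In F55H2.6, where 8.54% of all genes fell, 7 of 8 oocyte markers and 4 of 5 germline markers fell. The summed oocyte level was 6279 to 8030 CPM against 9227 to 9891 in L4440_RM. In C01A2.5, where 51.7% of all genes rose and 36.4% fell, all 8 sperm markers rose, from a summed 17.3 to 21.0 CPM to 1430 to 1593. All 8 oocyte markers fell, from 10924 to 11967 CPM to 3832 to 4147, and so did 5 of 5 germline markers. There 9 of 10 intestine markers and 5 of 6 muscle markers rose, and of 7 neuron markers 5 rose and 1 fell. No marker of these lists was at 0 in any of these groups. In C01A2.5 the 4 tested embryo markers fell too. In the libraries labelled M04C9.5, hrg-1, hrg-4 and hrg-7 fell, as did 9.5% of all genes, while 10.3% rose. There 4 of 6 muscle markers fell, with a summed level of 554 to 608 CPM against 684 to 741 in L4440_ZK. Of 5 germline markers 0 were called, and of 8 epidermis markers 2 rose and 1 fell. There 3 of 8 oocyte markers also fell, at 9796 to 10402 CPM, and 2 of 4 tested embryo markers, at 1387 to 1469 against 1577 to 1792, with 1 of the 6 listed embryo markers at 0 in both groups. In ZK795.1, 2 of 6 muscle markers rose, at 803 to 943 CPM, where 1.31% of all genes rose. In F25H2.5, R04E5.10 and F55H2.6 the median log2 fold change of the epidermis markers was -1.38, -0.86 and -0.60. That of the muscle markers was -0.47, -0.62 and -0.52. Of these, only 1 epidermis marker was called, lower in F55H2.6. The summed muscle level was 760 to 979, 535 to 978 and 687 to 913 CPM, against 977 to 1331 in L4440_RM. The part of these markers in the changes of the hrg genes was not tested.

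The epidermal haem-binding gene hrg-2 rose in C01A2.5. It measured 0.739, 0.437 and 0.556 CPM in L4440_ZK and 1.07, 0.986 and 0.926 CPM in C01A2.5, with every treated library above the controls. The change was 0.76 ± 0.26 (adjusted p = 0.00754, edgeR). It did not pass with relative log expression factors (0.53, adjusted p = 0.0552, edgeR) or DESeq2 (0.54, adjusted p = 0.141). In C01A2.5 51.7% of all genes rose and 36.4% fell. Of 8 epidermis markers, 4 rose and 2 fell there, with a median log2 fold change of 0.17 against 0.42 for all genes. Their summed level was 149 to 155 CPM against 125 to 128 in L4440_ZK, and none was at 0. The lowest group of hrg-2 was ZK795.1, at 0.260, 0.278 and 0.460 CPM, overlapping the control at -0.78 ± 0.32 (adjusted p = 0.245, edgeR). In F55H2.6 hrg-2 measured 0.833, 0.763 and 0.717 CPM against 0.589, 0.514 and 0.483 in L4440_RM. The F55H2.6 libraries lay wholly above the control, as did 19.4% of all genes there. The change of 0.53 ± 0.23 did not pass (adjusted p = 0.125, edgeR). Of 8 epidermis markers in F55H2.6, 0 rose and 1 fell, where 10.4% of all genes rose and 8.54% fell. Their median log2 fold change was -0.60 against 0.04 for all genes. F55H2.6 exceeded the libraries labelled R04E5.10, at 0.452, 0.513 and 0.347 CPM, by 0.76 ± 0.24 (adjusted p = 0.0333, edgeR).

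The intestine markers were set beside the falls of the intestinal hrg genes. Their sum rests most on the abundant members, so the median log2 fold change of the 10 is given too. In the libraries labelled M04C9.5, where hrg-1, hrg-4 and hrg-7 fell, 2 of 10 intestine markers rose and 2 fell. There 10.3% of all genes rose and 9.5% fell. The summed level was 1495 to 1687 CPM against 1115 to 1168 in L4440_ZK, with a median of 0.04. In ZK795.1, 1 rose and 2 fell, at 1267 to 1348 CPM and a median of -0.08, where 1.31% of all genes rose and 0.679% fell. In the libraries labelled R04E5.10, where hrg-4 fell, 1 rose (cpr-1), where 1.56% of all genes rose. The sum was 1443 to 1693 CPM against 1115 to 1282 in L4440_RM, with a median of -0.01. In F25H2.5 the sum was 1057 to 1324 CPM with 0 of 10 called and a median of -0.14, where 8.65% of all genes were called. The part of these markers in the falls was not tested. No intestine marker was at 0 in any group.

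Between the controls, hrg-7 alone of the 6 tested members differed past the threshold, with 43.8% of all genes called, 23.9% higher and 19.9% lower in L4440_RM. It was lower in L4440_RM, at 41.6 to 84.0 CPM, than in L4440_ZK, at 81.0 to 106, by a log2 difference of -0.71 ± 0.20 (adjusted p = 0.00616, edgeR). The groups overlapped through L4440_RM replicate 3, without which the difference was -1.08 (adjusted p = 2.85e-05, edgeR). Without that library hrg-1 also passed, at -0.37 (adjusted p = 0.0275, edgeR). The differences of hrg-6 (0.64 ± 0.27, adjusted p = 0.0540, edgeR) and hrg-9 (0.47 ± 0.21, adjusted p = 0.0637, edgeR) missed the threshold. They passed without L4440_RM replicate 2 for hrg-6 (0.76, adjusted p = 0.0383, edgeR) and without L4440_ZK replicate 1 for hrg-9 (0.69, adjusted p = 0.0194, edgeR). The related gene hrg-10 was higher in L4440_RM, by 0.28 ± 0.08 (adjusted p = 0.00629, edgeR). Cell-type markers moved between the controls too: in L4440_RM 7 of 8 epidermis markers (median log2 2.86), 7 of 8 sperm markers (2.197) and 6 of 6 muscle markers (0.70) were higher, and 4 of 8 oocyte and 4 of 5 germline markers were lower. The summed level of the muscle markers was 977 to 1331 CPM in L4440_RM and 684 to 741 in L4440_ZK, and that of the epidermis markers 156 to 214 and 125 to 128. Of 10 intestine markers, 4 were higher and 2 lower in L4440_RM, with a median log2 difference of 0.30 against 0.08 for all genes. Of 7 neuron markers, 3 were higher and 1 lower. The part of these markers in the hrg-7 difference was not tested. The prefix and anything that differed with it cannot be told apart.

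Over the 12 pairs of treatments within a prefix, 25 of the 72 possible differences between hrg genes were called. In the ZK set, 2 of the 6 tested hrg genes differed between R186.7 and ZK795.1 (8.51% of all genes called), 3 between R186.7 and M04C9.5 (17%) and 1 between ZK795.1 and M04C9.5 (24.6%). C01A2.5 differed in 4 from R186.7 (86.7%), in 4 from ZK795.1 (87.8%) and in 4 from M04C9.5 (87%). The share of hrg genes called in each C01A2.5 pair was below that of all genes. In the RM set, F55H2.6 differed in 1 from F25H2.5 (25.9%), in 3 from R04E5.10 (18.9%) and in 1 from F26D12.1 (22.9%). F25H2.5 differed in 0 from R04E5.10 (8.15%) and in 1 from F26D12.1 (11.5%), and R04E5.10 in 1 from F26D12.1 (3.22%). Each of the 3 pairs with F55H2.6 had hrg-9 among its calls, and each of the 3 pairs with C01A2.5 had hrg-1, hrg-2 and hrg-9 among them.

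The genes that varied together were described by the correlation of log2 CPM over the 30 libraries, after the mean of each prefix was subtracted. The points share controls, groups and depth, so these values are a description. Over all 30 libraries r was 0.53 between hrg-1 and hrg-7, 0.63 between hrg-1 and hrg-4 and 0.63 between hrg-4 and hrg-7. In the C01A2.5 libraries hrg-1 was high and hrg-7 low. Without them, over 27 libraries, the same 3 values were 0.91, 0.72 and 0.70, and hrg-1 and hrg-7 were then each other's nearest gene among the 12797 with a mean of at least 1 CPM. The correlation of hrg-9 with each of these 3 genes lay between -0.26 and 0.06 over 30 libraries.

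**Figure D4:**
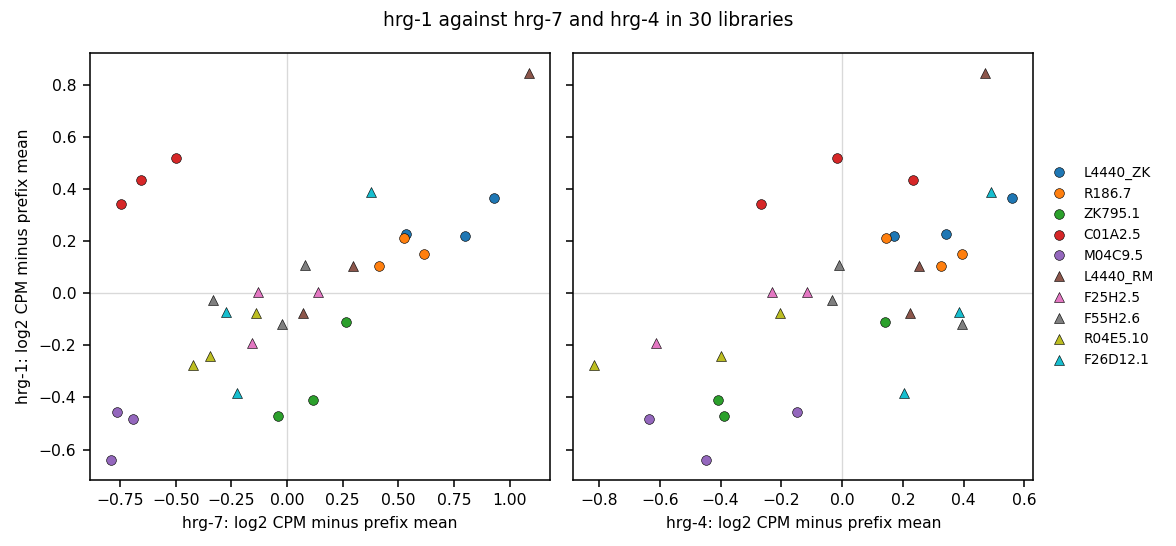
Log2 CPM of hrg-1 minus the prefix mean (vertical axis) against that of hrg-7 (left) and hrg-4 (right) in 30 libraries, with circles for ZK and triangles for RM. The 3 C01A2.5 libraries lie apart on the left, high in hrg-1 and low in hrg-7, and L4440_RM replicate 3 is at the upper right.

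The nearest genes to hrg-9 over the 30 libraries were osg-1 (r = 0.98), svh-1 (r = 0.96), a secreted growth factor-like protein, and pdfr-1 (r = 0.96), a neuropeptide receptor. They were picked by a correlation that takes in the F55H2.6 libraries, so their level there is a description, with no test. The level was higher in F55H2.6 for osg-1 (35.6 ± 5.52 CPM against 2.78 ± 0.101 in L4440_RM), svh-1 (7.61 ± 0.597 against 1.86 ± 0.245) and pdfr-1 (68.4 ± 7.62 against 9.16 ± 0.782). For hrg-7 the nearest were cpr-8 (r = 0.86), of the cathepsin B-like cysteine proteases, W10G11.2 (0.83) and F15B9.6 (0.83). For hrg-1 they were R193.2 (0.86), ttr-45 (0.79) and cyp-35D1 (0.77), for hrg-4 Y39B6A.1 (0.72), fbxa-18 (0.68) and R193.2 (0.64), and for hrg-2 F53C11.1 (0.81), bbln-1 (0.81) and crp-1 (0.81). The nearest to hrg-6 were T24D3.2, gst-20 and F46C5.10, the first at 0.68.

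Other genes of haem and iron handling were counted from a list of 21, of which 16 were tested. In ZK795.1, where 1.99% of all genes were called, 1 rose, the ferritin gene ftn-1 (0.64 ± 0.09, adjusted p = 7.80e-05, edgeR), while hrg-1 and hrg-7 fell. There were 3 that rose and 4 that fell in the libraries labelled M04C9.5, against 19.8% of all genes called. In these libraries ftn-1 fell from 35.0 to 18.3 CPM (-0.94 ± 0.09, adjusted p = 7.23e-08, edgeR), together with hrg-1, hrg-4 and hrg-7. The second ferritin gene, ftn-2, fell by 0.31 ± 0.05 (adjusted p = 3.66e-05, edgeR), and the ferroportin homologue fpn-1.2 rose by 0.72 ± 0.11 (adjusted p = 1.55e-05, edgeR). In C01A2.5, 9 rose and 6 fell, against 88.1% of genes called, and the haem exporter gene mrp-5 rose from 175.5 to 259 CPM (0.55 ± 0.05). The level of mrp-5 passed in no other treatment. In F55H2.6, 2 rose (fpn-1.2 and vem-1) and 0 fell, where 18.9% of all genes were called and 10.4% rose. A single gene rose in the libraries labelled R04E5.10 (fpn-1.2, 0.79 ± 0.17, adjusted p = 0.0178, edgeR), where 2.28% of all genes were called and 1.56% rose. In R186.7, F25H2.5 and those labelled F26D12.1 none passed.

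Proteins that use haem were counted in 3 further lists. Of 10 genes of haem a, cytochrome c and cytochrome b5, 4 fell in F55H2.6, where 8.54% of all genes fell, among them cyc-1 (-0.42 ± 0.07) and sco-1 (-0.45 ± 0.06), with a list median of -0.13 against 0.04 for all genes. Of 28 globins tested there, 2 rose, where 10.4% of all genes rose. In C01A2.5, 2 of the 10 haem a and cytochrome genes rose and 8 fell, with a list median of -0.48 against 0.42 for all genes. There 24 of 30 globins rose and 1 fell, and 11 of 12 catalases and haem peroxidases rose, where 51.7% of all genes rose and 36.4% fell. Of the latter list, 1 rose and 3 fell of 12 in the libraries labelled M04C9.5, where 10.3% of all genes rose and 9.5% fell. Between the controls 4 of its 11 tested genes were higher and 2 lower in L4440_RM, as were 6 of 30 globins (0 lower) and 3 of the 10 haem a and cytochrome genes (1 lower), against 23.9% of all genes higher and 19.9% lower. The cdr genes, relatives of hrg-2, lie beside it on chromosome V, with cdr-7 at 366 bp and cdr-4 at 790 bp. In C01A2.5, where hrg-2 rose, cdr-7 fell by 1.04 ± 0.11 (adjusted p = 6.73e-10, edgeR), and 1 of 6 cdr genes rose and 2 fell. Among the aspartic proteases, the wider family of HRG-7, 5 of 12 rose in ZK795.1 and 0 fell, while hrg-7 fell and 1.31% of all genes rose. Of the same 12, 1 rose and 5 fell in the libraries labelled M04C9.5, where 10.3% of all genes rose and 9.5% fell. Those that fell included asp-13 (-0.74 ± 0.06) and asp-17 (-1.199 ± 0.09).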

How the data were processed

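Polyadenylated RNA of 30 whole-worm libraries was analysed from the counts per gene that the authors deposited, which are raw and not normalized. Per the submitters' processing notes, bcl2fastq 1.8.4, STAR 2.4.1d, featureCounts 1.4.6-p4 and the build WBcel235 were used. The authors' deposited RPKM table was used only to recover gene lengths, because its 30 totals had been applied down the genes. The hrg genes and the gene lists were chosen with earlier results of these data known.

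The tests are robust quasi-likelihood tests of edgeR 4.0.16 (R 4.3.3), after filterByExpr and TMM scaling. Fits held all 15 libraries of a prefix (16495 genes in ZK, 15795 in RM), or all 30 (16867 genes) for the 2 controls. Benjamini-Hochberg adjustment ran over all genes, and 0.05 was the threshold. Standard errors were taken from the log2 fold change and the F statistic. CPM was taken from the 30-library scaling. The replicate number is the order within a group. Libraries of a prefix with the same number fall in the same round of title numbers. The named genes are the 8 hrg genes, the targets, overlapping or target-side neighbours, up to 4 members per list with the smallest p, and the 3 genes nearest to each hrg gene. The fits were tested on simulated data. Alternatives were relative log expression factors, library totals, no filter, DESeq2 1.42.0, a replicate block, leaving out each library, the ZK fit without C01A2.5 and replicates 1 and 2 of every RM group.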

Additional observations from a re-analysis of the deposited data

How the results depend on the processing

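The calls of hrg-1 and hrg-7 in ZK795.1, hrg-1, hrg-4 and hrg-7 in the libraries labelled M04C9.5, hrg-7 and hrg-9 in C01A2.5, hrg-9 in F55H2.6 and hrg-7 between the controls held under every alternative run. Other calls moved with the processing, and the cause was not tested. The number of hrg genes called was 1 in R186.7 with no filter and 1 with DESeq2 (0 as reported), 2 in F55H2.6 and 2 in R04E5.10 with DESeq2, 3 between the controls with library totals, and 0 in F25H2.5 and 0 in R04E5.10 with replicates 1 and 2 of the RM groups. With the replicate block it was 0 in R04E5.10 and 2 between the controls. Replicate numbers follow the title numbers, which run in rounds that each hold every group of a prefix once. The rounds are titles 1 to 5, 6 to 10 and 11 to 15 in ZK, and 16 to 20, 21 to 25 and 26 to 30 in RM. The labels do not say what the libraries of a round shared, and the main fits leave the round out. Same-number correlations ran from -0.32 to 0.19 in ZK (median -0.025, other pairs 0.010) and -0.26 to 0.73 in RM (median 0.16, other pairs -0.11), with 2 and 18 of 30 pairs over 0.1, and 3 and 9 of 15 libraries were closest to their own number. Without each library in turn, the number called was 0 to 1 in R186.7, 2 to 3 in ZK795.1, 3 to 4 in C01A2.5, 3 to 3 in M04C9.5, 0 to 0 in F25H2.5, 1 to 2 in F55H2.6, 0 to 1 in R04E5.10, 0 to 0 in F26D12.1, 1 to 2 between the controls and 22 to 28 over the pairs of treatments.

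Changes that reversed were uncalled as reported, but not all reversed values were small. That of hrg-6 in ZK795.1 reached -0.37 when single libraries were left out. For hrg-6 in ZK795.1 (0.0009 as reported) the value was -0.028 with relative log expression factors, -0.021 with totals, -0.0069 with the block and -0.0093 without C01A2.5. For hrg-1 in C01A2.5 it was -0.076 with relative log expression factors and -0.077 with DESeq2. Between the controls it was 0.10 for hrg-1 and 4.07e-05 for hrg-2 with totals, and -0.022 for hrg-4 with relative log expression factors and with DESeq2. Ranges without each library that crossed 0 were -0.012 to 0.34 (hrg-2), -0.17 to 0.022 (hrg-4) and -0.33 to 0.036 (hrg-9) in R186.7, -0.37 to 0.15 (hrg-6) and -0.050 to 0.32 (hrg-9) in ZK795.1, -0.011 to 0.37 (hrg-9) in M04C9.5, -0.053 to 0.27 (hrg-2) in F25H2.5, -0.018 to 0.12 (hrg-4) and -0.13 to 0.29 (hrg-6) in F26D12.1, and -0.37 to 0.12 (hrg-1), -0.31 to 0.079 (hrg-2) and -0.093 to 0.13 (hrg-4) between the controls.

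Over all genes, DESeq2 called 648 in R186.7 (421 as reported), 577 in ZK795.1 (328), 609 in R04E5.10 (360) and 5 in F26D12.1 (1, and 3 or 4 with relative log expression factors or no filter). The higher share was 34.9% in place of 72.9% in R186.7, 36.0% in place of 65.9% in ZK795.1 and 57.5% in place of 68.6% in R04E5.10 with DESeq2, and 77.6% in place of 54.5% between the controls with totals. In M04C9.5 2776 genes were lower with relative log expression factors and 2749 with DESeq2, in place of 1567, and 782 with totals. In F55H2.6 the higher share was 35.3% with DESeq2 and 81.0% with totals, in place of 54.8%. Without ZK795.1 replicate 3, 1304 genes were called in ZK795.1, with a higher share of 32.6%. Replicates 1 and 2 of the RM groups gave 748 (1366), 784 (2987) and 2 (1) calls in F25H2.5, F55H2.6 and F26D12.1. At 9 to 50 counts per library, hrg-2 and hrg-6 were limited by depth.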
